A study of Mus musculus with 4 samples.

Results

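The 37 genes described here carry out or control the oxidation of fatty acids in mouse liver. They were taken from a fixed list covering the nuclear receptor PPAR-alpha, the carnitine shuttle, mitochondrial and peroxisomal beta-oxidation, ketone bodies and acyl-CoA hydrolysis, and they stand among 21652 protein-coding genes of the annotation. A gene was measured through the assembled loci that overlap its exons on build GRCm38, and 37 of 37 genes had at least 1 such locus in at least 1 library. Of these, 33 could be compared between the genotypes and 4 could not.

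Liver RNA came from 2 groups of male mice on a C57BL/6 background, labelled C57/BL6. The Hjv knockout animals (2 libraries) are homozygous for a disruption of hemojuvelin, a BMP co-receptor that induces the iron hormone hepcidin. The labels name no promoter or Cre that would limit the disruption to a cell type. The wild type animals (2 libraries) carry intact hemojuvelin. Feeding was the same in both groups: AIN-93G with 2.5 mg iron/kg, a low iron diet begun at 5 weeks of age and kept up for 50 days. Livers were collected at 12 weeks. Whether the 2 libraries of a group come from separate animals is not in the labels, so p-values measure the spread between these libraries, which may be technical.

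The values are FPKM, a level per length of transcript and per sequenced depth, which the authors deposited for loci assembled separately in each library. They were divided here by a scaling factor per library and are called scaled FPKM. Depth came to an estimated 54950000 and 131600000 fragments in knockout replicates 1 and 2, against 86900000 and 51300000 in wild type replicates 1 and 2, if the smallest step between deposited confidence bounds is 1 fragment. Hemojuvelin itself was at 0.237 scaled FPKM in knockout replicate 2, with no locus assembled in knockout replicate 1, against 9.24 and 29.7 in the wild type libraries. Summed over the 8 of 10 hepatocyte markers with a locus in all 4 libraries, the level was 12212 and 12182 scaled FPKM in knockout libraries, against 11648 and 10512 in wild type libraries. Single markers within that sum went opposite ways. Apoa1 measured 3404 and 5029 in knockout libraries, against 2647 and 1602 in wild type libraries, and Tat 245 and 239, against 456 and 408. Albumin and Serpina1a had no locus anywhere, so a missing locus is not a level of 0. Kupffer cell markers summed to 99.6 and 135 scaled FPKM in knockout, against 126 and 153 in wild type, with 7 of 8 measured in all libraries, and 5 of 6 adipocyte markers had no locus. In whole liver, fewer cells of a type and less RNA per cell cannot be told apart.

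Long-chain fatty acids enter mitochondria as carnitine esters, made by the outer membrane enzyme Cpt1a, and are then shortened by cycles of dehydrogenation, hydration, dehydrogenation and thiolysis. Peroxisomes run a related cycle that starts with an oxidase and handles very long, branched and dicarboxylic chains and the side chain of bile acid precursors. Unsaturated chains need extra enzymes, isomerases and dienoyl-CoA reductases, before the cycle can go on. In fasted liver the acetyl-CoA is made into ketone bodies, and PPAR-alpha, a nuclear receptor for fatty acids, induces many of these genes.

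Both dienoyl-CoA reductases were lower in the knockout libraries, and they had the 2 smallest p-values of the list. Decr1, the mitochondrial enzyme (chromosome 4, 15917240 to 15945507), measured 45.9 and 58.9 scaled FPKM in knockout libraries, against 152 and 145 in wild type libraries. Decr2, the peroxisomal enzyme (chromosome 17, 26081208 to 26090337), measured 67.4 and 62.6 in knockout libraries, against 105 and 110 in wild type libraries. The groups did not overlap for either gene. On the other side, the acyl-CoA dehydrogenase Acadm and the branched-chain oxidase Acox2 were higher in both knockout libraries. None of these differences passed the test over all genes.

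Across all genes, limma compared knockout with wild type on log2(scaled FPKM + 1), a scale that understates the change of genes at low levels. At an adjusted p under 0.05 (Benjamini-Hochberg), 0 of the 33 tested genes passed, against 0% of the 7913 genes tested, and Decr1 came nearest, at an adjusted p of 0.296. At an unadjusted p under 0.05, 2 were higher (Acox2 and Acadm) and 3 lower (Decr1, Decr2 and Nudt7), against 5.76% of all genes higher and 5.3% lower. For 1 gene alone, the smallest p that exact permutation of 4 libraries allows is 0.333.

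Both knockout libraries lay below both wild type libraries for 16 of the 33 genes and above them for 6, and 11 overlapped. Among all tested genes 23.7% lay below and 22.4% above. The median log2 difference was -0.29 for the 33 genes and 0.02 for all genes. The genes are abundant, with a median at the 93.0th percentile of level, and abundant genes as a whole lay lower in the knockout libraries. At a limit chosen after seeing the data, a mean of at least 50 scaled FPKM, 916 genes were left, of which 39.7% lay below and 14.5% above, and the median of their log2 differences was -0.16. Of the 23 fatty acid oxidation genes at that level 12 lay below and 5 above, with a median of -0.17, so their median was close to that of other abundant genes. Without scaling, 4 of the 33 lay below and 8 above, against 8.57% and 36.6% of all genes, and the median was -0.08 for the 33 genes while that of all genes moved by 0.18 to 0.19. With quantile normalization 11 lay below and 7 above, against 25.7% and 18.7% of all genes, and with the midpoint of the deposited bounds 11 lay below and 6 above, against 22.9% and 22.7%.

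**Figure D1:**
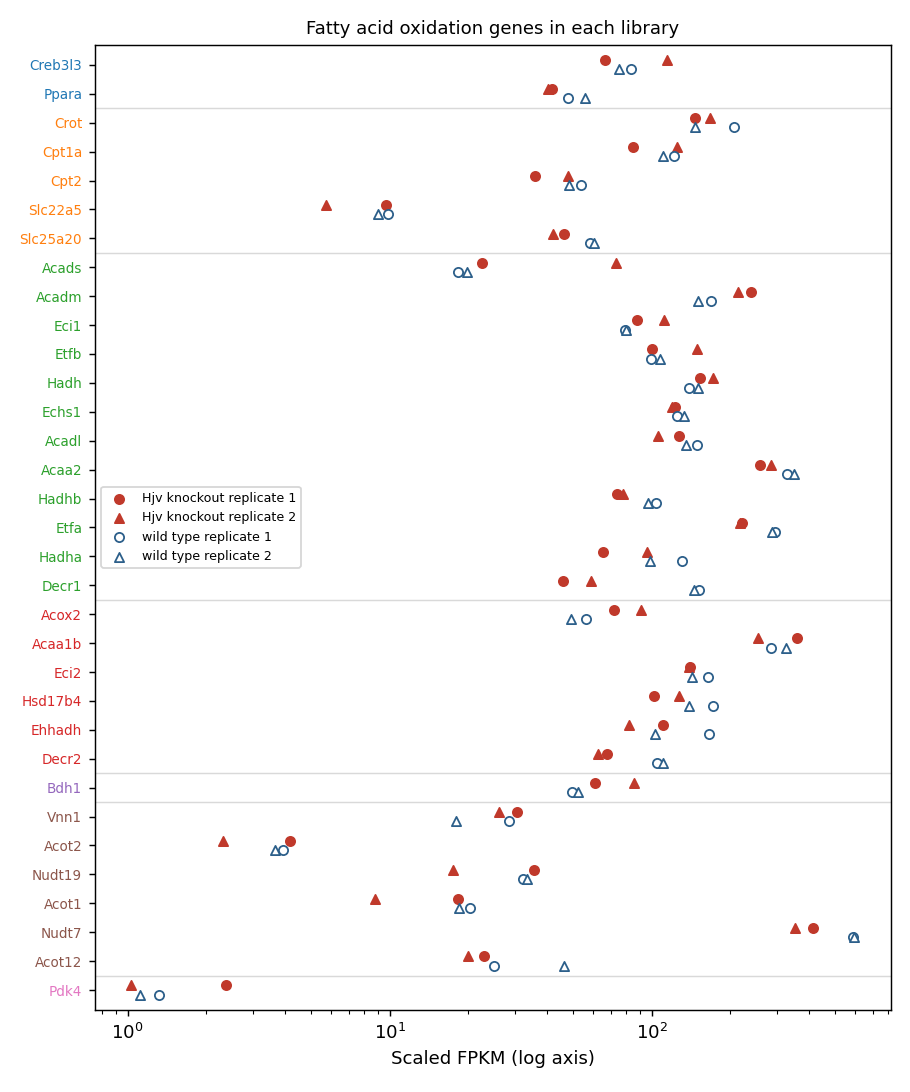
Scaled FPKM of the 33 tested genes on a log axis, 1 row per gene grouped by role, with filled red symbols for the 2 knockout libraries and open blue symbols for the 2 wild type libraries. Decr1 shows the widest gap, with 45.9 and 58.9 in knockout libraries against 152 and 145 in wild type libraries, while Acads is high in knockout replicate 2 alone.

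The regulators came first in the list. Ppara, which encodes PPAR-alpha, measured 41.7 and 40.2 scaled FPKM in knockout libraries, against 47.8 and 55.7 in wild type libraries. The knockout replicate 1 value averages 2 loci, at a deposited FPKM of 56.9 over 2756 exonic bases and 11.2 over 482. The single locus of wild type replicate 2 touched 6 exons, against 8 in wild type replicate 1 and in knockout replicate 2. The log2 difference was -0.33 (SE 0.19; limma, adjusted p = 0.548), and its 95% interval of -0.81 to 0.15 includes 0. With the loci of the gene summed it was -0.11. Creb3l3, a membrane-bound transcription factor of the liver that acts together with PPAR-alpha, measured 66.6 and 114 in knockout libraries, against 83.2 and 75.4 in wild type libraries. The wild type pair lay between the knockout pair, so no direction can be given.

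Among the 5 carnitine shuttle genes, 2 lay below in both knockout libraries and 3 overlapped, where 23.7% of all genes lay below. Slc25a20, the carrier that exchanges acylcarnitine for carnitine across the inner mitochondrial membrane, measured 46.2 and 42.0 in knockout libraries, against 58.0 and 60.2 in wild type libraries. Its log2 difference was -0.42 (SE 0.18; limma, adjusted p = 0.481). Cpt2, which turns acylcarnitine back into acyl-CoA inside the mitochondrion, measured 36.0 and 47.9 in knockout libraries, against 54.0 and 48.3 in wild type libraries. Here the gap between the groups was small beside the gap within the knockout pair.

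Cpt1a, the rate-controlling step of the shuttle, measured 85.0 and 125 scaled FPKM in knockout libraries, against 122 and 110 in wild type libraries. The 2 knockout libraries lay on opposite sides of the wild type pair, and the 95% interval of the log2 difference ran from -0.82 to 0.48. Crot, the peroxisomal carnitine octanoyltransferase, measured 146 and 167 in knockout libraries, against 206 and 146 in wild type libraries. Slc22a5, the carnitine importer of the cell membrane, was the least abundant of the 5, at 9.71 and 5.73 in knockout libraries, against 9.86 and 9.06 in wild type libraries. Of its transcript's stretches of 50 bases, 27.1% also occur in other genes, almost all in the related Slc22a21, so its reads may be split between them.

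The first step of each mitochondrial cycle is taken by acyl-CoA dehydrogenases of different chain lengths, and these did not lie on 1 side. Acadm, the medium-chain enzyme (chromosome 3, 153922357 to 153944632), measured 240 and 214 scaled FPKM in knockout libraries, against 168 and 150 in wild type libraries. Both knockout libraries were higher, with a log2 difference of 0.51 (SE 0.20; limma, unadjusted p = 0.0495, adjusted p = 0.452). Acadl, the long-chain enzyme, measured 127 and 106 in knockout libraries, against 149 and 135 in wild type libraries. Acadl was lower in both knockout libraries (log2 difference -0.29, SE 0.20), and its difference was -0.16 without knockout replicate 2.

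Acads, the short-chain enzyme, measured 22.4 and 72.9 scaled FPKM in knockout libraries, against 18.2 and 19.8 in wild type libraries. Knockout replicate 2 alone was far from the rest, and the log2 difference of 1.06 had a wide error (SE 0.56; limma, adjusted p = 0.526). Without knockout replicate 1 it was 1.89, and without knockout replicate 2 it was 0.22, each from 1 knockout library. Acads has the highest GC content of the list, 60.1%, and across all tested genes the difference between the knockout replicates had a Spearman correlation of 0.484 with GC content. The knockout minus wild type difference had one of 0.385, so GC content bears on the comparison of the genotypes as well. After a correction for GC content in each library the Acads difference was 0.50, still with both knockout libraries above.

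Acadvl and Acad11, the dehydrogenases of very long chains, did not enter the fit, because each was assembled in a locus that also covers exons of a second gene, Dvl2 for Acadvl and Ackr4 for Acad11. The Acadvl locus measured 95.5 and 235 scaled FPKM in knockout libraries, against 123 and 307 in wild type libraries. Replicate 2 was higher than replicate 1 in both genotypes, and the genotypes overlapped. The Acad11 locus measured 75.2 and 134 in knockout libraries, against 97.4 and 104 in wild type libraries, and these overlapped as well.

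**Figure D2:**
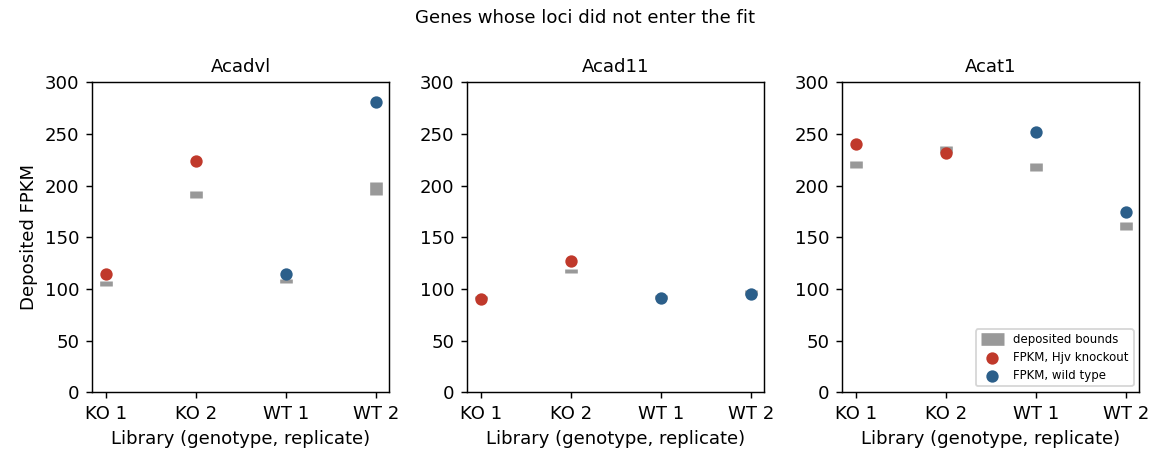
Deposited FPKM (points) and the deposited confidence bounds (grey bars) of the locus that covers most exons of Acadvl, Acad11 and Acat1 in each library, knockout in red and wild type in blue. Knockout and wild type libraries overlap for each of the 3 genes, and the Acadvl value of wild type replicate 2, 281 FPKM, lies above its own bounds of 191 and 204.

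The next steps of the long-chain cycle belong to the trifunctional protein, whose alpha and beta subunits are encoded by Hadha and Hadhb. The 2 genes lie head to head on chromosome 5, with Hadha on the minus strand starting at 30155162 and Hadhb on the plus strand starting at 30155248. These starts are those of GENCODE M21. The 85 bases between them (chr5:30155163-30155247, plus strand, letters from the RefSeq promoter table, GRCm38.p6) are shown because they lie upstream of both genes, also by the starts that RefSeq gives, which stand further apart:
Hadha-Hadhb: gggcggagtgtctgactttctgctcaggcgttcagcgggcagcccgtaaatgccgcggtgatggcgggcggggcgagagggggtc

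Both genes lay below in both knockout libraries. The assembled Hadha loci ran past its annotated start into the bases shown, ending at 30155170 and 30155209 in knockout libraries. In wild type libraries they ended at 30155197 and 30155167. Hadhb measured 74.1 and 78.0 scaled FPKM in knockout libraries, against 104 and 97.3 in wild type libraries, or -0.40 on the log2 scale (SE 0.18; limma, adjusted p = 0.483). Of the stretches of 50 bases in Hadhb, 61.5% also occur in the predicted gene Gm13910, so part of its reads may have been placed there. Hadha measured 65.5 and 95.7 in knockout libraries, against 130 and 98.9 in wild type libraries. Its knockout replicate 2 came close to wild type replicate 2, and the log2 difference of -0.51 had a wide error (SE 0.28; limma, adjusted p = 0.533). It was -0.24 without knockout replicate 1 and -0.79 without knockout replicate 2.

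The enzymes of shorter chains gave small differences. Hadh, the 3-hydroxyacyl-CoA dehydrogenase of medium and short chains, averaged 162 ± 12.9 in knockout and 145 ± 8.25 in wild type libraries (SD, n = 2 each). Echs1, the short-chain enoyl-CoA hydratase, averaged 122 ± 2.44 in knockout and 129 ± 5.24 in wild type libraries (SD, n = 2 each). The 95% interval of the log2 difference was -0.33 to 0.66 for Hadh and -0.55 to 0.38 for Echs1. Acaa2, the thiolase that ends the cycle, was among the most abundant, at 260 and 286 in knockout libraries, against 329 and 351 in wild type libraries. Both knockout libraries were lower, with a log2 difference of -0.32 (SE 0.19).

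Electrons from the dehydrogenases pass to the electron transfer flavoprotein, made of the subunits Etfa and Etfb. Etfa measured 221 and 218 scaled FPKM in knockout libraries, against 297 and 288 in wild type libraries. The replicates were close to each other in both genotypes, and the log2 difference was -0.41 (SE 0.19; limma, adjusted p = 0.483). With the midpoint of the deposited bounds it was -0.15. The deposited FPKM of Etfa, 266 and 207, lay inside its bounds in the knockout libraries, while 277 and 264 lay above the upper bounds of 240 and 230 in the wild type libraries. Etfb measured 100 and 149 in knockout libraries, against 99.5 and 108 in wild type libraries. The subunits of 1 protein thus gave different pictures, a separation for Etfa and an overlap for Etfb, and the difference between them was not tested. Etfb has a GC content of 57.1% and Etfa of 45.0%, and the Etfb difference of 0.24 became -0.12 after correction for GC content. Etfb also shares 67.3% of its stretches of 50 bases with Gm45233, annotated at the same place.

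Decr1 had the largest difference of the list in either direction. It averaged 52.4 ± 9.20 scaled FPKM in knockout and 149 ± 4.86 in wild type libraries (SD, n = 2 each), a ratio of 0.352. The log2 difference was -1.498 (SE 0.21; limma, unadjusted p = 0.000871, adjusted p = 0.296). Over the 20 other settings tried the log2 difference stayed between -1.68 and -1.29, though some of these settings cannot change it. It passed the adjusted threshold in none of the settings that kept all libraries. Decr2 averaged 65.0 ± 3.36 in knockout and 108 ± 3.70 in wild type libraries (SD, n = 2 each). Its difference on the log2 scale was -0.72 (SE 0.18; limma, unadjusted p = 0.0104, adjusted p = 0.397).

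Among the isomerases that work beside the dienoyl-CoA reductases, Eci1 lay above the wild type libraries and Eci2 below them. Eci1, the mitochondrial enoyl-CoA isomerase, measured 88.1 and 112 in knockout libraries, against 79.0 and 79.8 in wild type libraries. Both knockout libraries were above the wild type pair, by a log2 difference of 0.32 (SE 0.21), which was 0.14 without knockout replicate 2 and 0.19 after correction for GC content. Eci2, the peroxisomal isomerase, measured 140 and 139 in knockout libraries, against 165 and 143 in wild type libraries. It lay below by a log2 difference of -0.14 (SE 0.19), which turned to 0.07 with values as deposited, so it has no direction here.

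**Figure D3:**
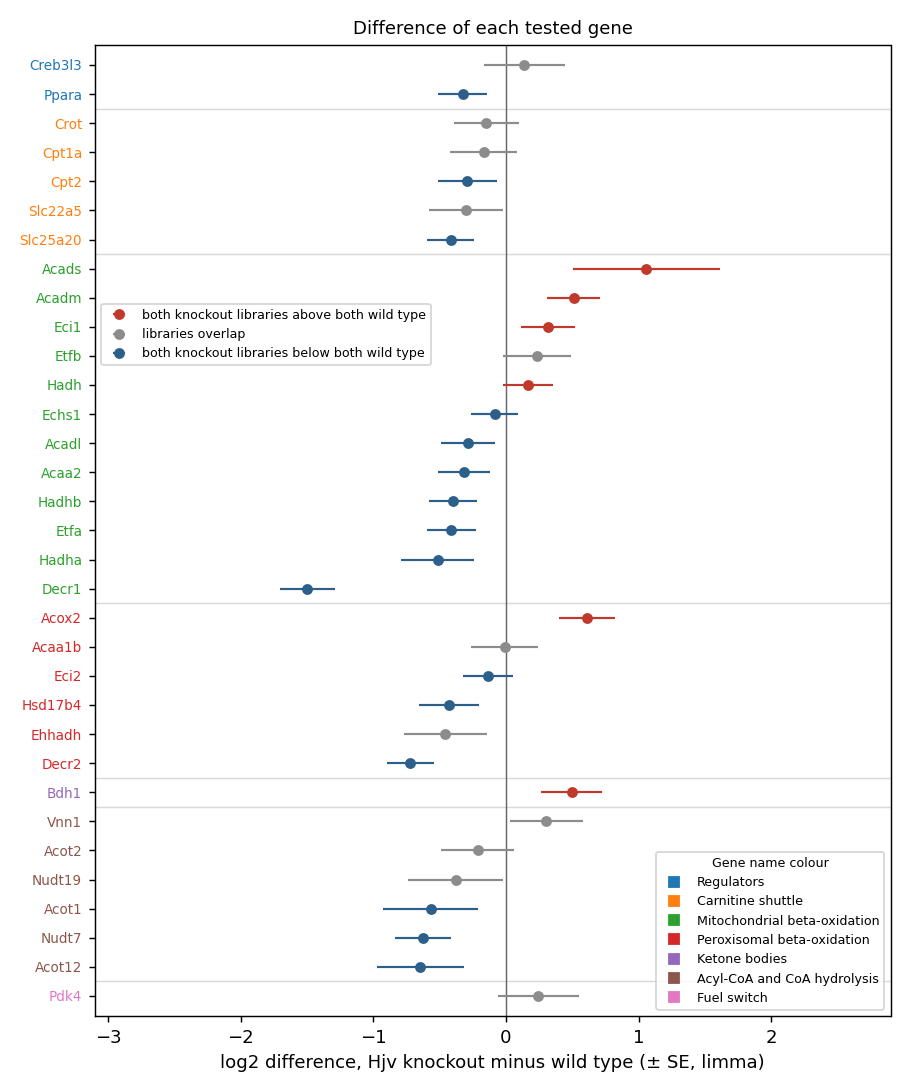
The log2 difference of each tested gene, knockout minus wild type, with its SE from limma, coloured by whether the 2 knockout libraries lie above (red), among (grey) or below (blue) the wild type libraries. The differences run from -1.498 for Decr1 to 1.06 for Acads, and the next lowest is Decr2 at -0.72.

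In the peroxisome, Acox2, an oxidase of branched chains and bile acid precursors (chromosome 14, 8225511 to 8259353), was higher in both knockout libraries. It measured 72.1 and 90.8 scaled FPKM in knockout libraries, against 56.3 and 49.2 in wild type libraries. The log2 difference was 0.61 (SE 0.21; limma, unadjusted p = 0.0346, adjusted p = 0.442). It was the 1 gene of the 6 tested peroxisomal genes to lie above, where 22.4% of all genes did. Of the other peroxisomal genes, 3 lay below, where 23.7% of all genes did, and 2 overlapped. The 3 include Eci2, whose sign depends on the scaling.

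The peroxisomal bifunctional enzymes, which carry out the middle steps of the cycle, were Hsd17b4 and Ehhadh. Hsd17b4 measured 102 and 127 in knockout libraries, against 171 and 138 in wild type libraries, and the groups did not overlap. Ehhadh, a PPAR-alpha target, measured 110 and 82.0 in knockout libraries, against 166 and 103 in wild type libraries, and the groups overlapped. On the log2 scale Hsd17b4 differed by -0.43 (SE 0.23), and by -0.27 without knockout replicate 1. Ehhadh differed by -0.46 (SE 0.31), and leaving out 1 wild type library gave -0.13 (replicate 1 out) or -0.80 (replicate 2 out).

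The last peroxisomal step is taken by 2 closely related thiolases. Acaa1b measured 359 and 255 in knockout libraries, against 284 and 326 in wild type libraries, with a log2 difference of -0.01. Its GC content is 58.9%, and after correction for GC content the difference was -0.49. Acaa1a had no locus of its own in either knockout library, and in the wild type libraries it had a short one over 138 and 137 exonic bases at 0.525 and 0.467 scaled FPKM. Of the stretches of 50 bases in Acaa1a, 34.03% occur in Acaa1b. The level of Acaa1a could therefore not be taken from these loci, and the Acaa1b value may hold reads of both.

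Of the ketone body genes, Bdh1, the 3-hydroxybutyrate dehydrogenase, measured 61.1 and 85.7 scaled FPKM in knockout libraries, against 49.6 and 52.5 in wild type libraries. It was higher in both, with a log2 difference of 0.50 (SE 0.23; limma, adjusted p = 0.496), and it was 0.25 without knockout replicate 2. Acat1, the mitochondrial acetoacetyl-CoA thiolase, was not tested, because its loci spanned 41.5% of a coding transcript in knockout replicate 2 and 38.4% in wild type replicate 1, under the 50% required. The locus that touches 12 of its exons measured 200 and 244 scaled FPKM in knockout libraries, against 269 and 191 in wild type libraries. The 2 knockout values lay between the 2 wild type values.

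Genes that split acyl-CoA or coenzyme A itself were lower or overlapped. Nudt7, a peroxisomal hydrolase of coenzyme A (chromosome 8, 114133557 to 114154739), was the most abundant of the 33 genes, at 415 and 353 scaled FPKM in knockout libraries, against 587 and 594 in wild type libraries. Its log2 difference was -0.63 (SE 0.21; limma, unadjusted p = 0.0303, adjusted p = 0.437). The Nudt7 locus of knockout replicate 2 held 801 exonic bases, against 3033 to 3086 in the other libraries. The deposited FPKM of knockout replicate 1, 499, lay above its upper bound of 421. With the midpoint of the deposited bounds the log2 difference of Nudt7 was -0.76. Nudt19, a second peroxisomal enzyme of that kind, measured 35.6 and 17.5 in knockout libraries, against 32.3 and 33.5 in wild type libraries. Its low value came from knockout replicate 2 alone, and 39.5% of its stretches of 50 bases lie in B230322F03Rik, annotated at the same place.

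Acot12, a cytosolic acetyl-CoA hydrolase, measured 23.0 and 19.98 in knockout libraries, against 25.1 and 46.1 in wild type libraries. The size of its difference rested on wild type replicate 2, since the log2 difference of -0.65 became -0.22 without it. Acot1, a cytosolic thioesterase of long chains, measured 18.3 and 8.78 in knockout libraries, against 20.3 and 18.4 in wild type libraries, and knockout replicate 1 was next to the wild type pair. Acot2, its mitochondrial counterpart, measured 4.18 and 2.31 in knockout libraries, against 3.94 and 3.65 in wild type libraries. Of the stretches of 50 bases, 33.0% in Acot1 and 27.7% in Acot2 occur in other genes, mostly in each other.

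Vnn1, the pantetheinase that recycles part of coenzyme A and a PPAR-alpha target, measured 30.6 and 26.1 in knockout libraries, against 28.6 and 18.0 in wild type libraries, and the groups overlapped. Pdk4, the kinase that shuts the pyruvate dehydrogenase complex when fat is burned, was the least abundant of the 33 genes, at 2.38 and 1.03 in knockout libraries, against 1.32 and 1.12 in wild type libraries. Its 95% interval of the log2 difference, -0.55 to 1.03, does not set a direction.

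**Figure D4:**
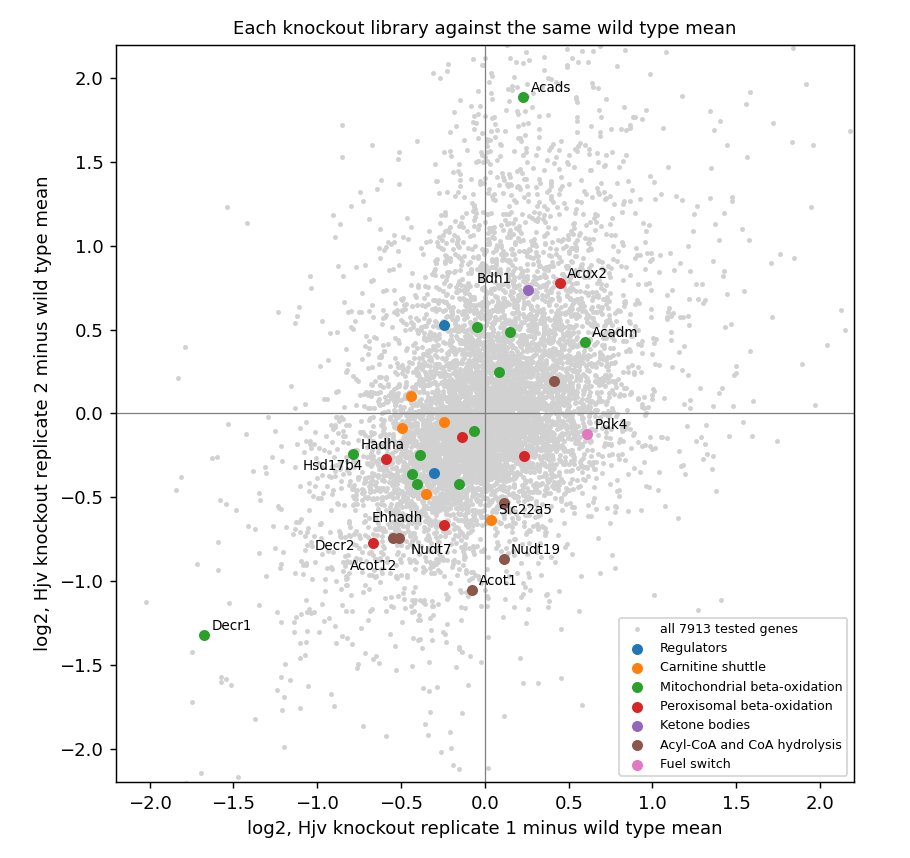
Each gene's log2 level in knockout replicate 1 (x axis) and knockout replicate 2 (y axis) minus the same wild type mean, with the fatty acid oxidation genes coloured by role over all 7913 tested genes in grey. Decr1, Decr2, Nudt7 and Acot12 are lower in both libraries and Acadm, Acox2 and Bdh1 higher in both, while Acads, Nudt19 and Acot1 stand apart in knockout replicate 2 alone. The axes end at 2.2 and leave out 99 genes.

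The knockout libraries differed from each other more than the wild type libraries did. Over the 33 genes the median absolute log2 difference was 0.33 between the knockout replicates and 0.13 between the wild type replicates, and it was over 0.5 for 10 genes in the knockout pair and 3 in the wild type pair. All tested genes showed a wider knockout pair too. The SD of their log2 difference was 0.64 between the knockout replicates and 0.41 between the wild type replicates. Knockout replicate 2 was above knockout replicate 1 for 15 genes and below it for 18. In knockout replicate 1, 28 of the 33 genes rested on a single locus, against 32 in knockout replicate 2. In wild type replicates 1 and 2 it was 32 and 33. The deposited confidence bounds of the loci used spanned a median of 3.93% to 6.25% of their midpoint per library. These bounds are the authors' and cover 1 library only, and the FPKM itself lay above its upper bound for 24 of 39 loci in knockout replicate 1 and 7 of 34 in knockout replicate 2, against 18 of 34 and 18 of 33 in wild type replicates 1 and 2.

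A direct repeat of the short site that PPAR-alpha binds as a pair with RXR was searched in the promoters of the list, from 250 bases before to 50 bases after the start (RefSeq, GRCm38.p6), which were given for 32 of the 37 genes. The repeat was AGGTCANAGGTCA, or TGACCTNTGACCT for the other strand, with up to 2 mismatches outside the N. It was found in 5 of the 32 promoters, 15.6%, against 3.81% of 27025 promoters of all genes. Only the first promoter listed for a gene was searched, while Acox2, Bdh1, Nudt7 and Creb3l3 have 2 listed. A match is a description and no proof of binding. The matches are shown in capitals, to let each be read against the repeat. Each line gives 30 bases, 5' to 3' on the strand of the gene:
Acot12: taggacccTGACCTCTCACCTcctaagcac
Slc25a20: ctgaatgtAGGTGAAAGGTCGgcggagccg
Etfa: gcacacccTTACCTTTGCCCTactcccaag
Echs1: gcccgctcAGGTCACGGGTCCaccccttaa
Creb3l3: ctgtaagtAGGGGAGAGGTCAcacagaccc

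The match in Acot12 (chr13:91741403-91741432, plus strand) has 1 mismatch and begins 110 bases before the start, and the other 4 have 2 mismatches. The match in Slc25a20 (chr9:108662134-108662163, plus strand) begins 6 bases after the start. The other matches lie in Etfa (chr9:55512299-55512328), Echs1 (chr7:140116483-140116512) and Creb3l3 (chr10:81092779-81092808), all on the minus strand. Ppara, Decr1, Decr2, Acadm and Acox2, which the results above turn on, had no match in the promoter searched or, for Decr1, no promoter given.

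Other genes of the pathway came from 3 further lists, and 0 of their genes passed limma at an adjusted p under 0.05. Of 36 further genes of fatty acid activation, transport and oxidation, 30 were tested, and 3 lay above and 13 below in both knockout libraries, where 22.4% and 23.7% of all genes did. The other 14 overlapped. Among abundant genes, at a mean of at least 50 scaled FPKM, 39.7% lay below, and this list was not split by level. Before adjustment, p was under 0.05 for 2 genes on the higher side and 5 on the lower side, against 5.76% and 5.3% of all genes. Abcd3, which imports acyl-CoA into the peroxisome, measured 142 and 176 scaled FPKM in knockout libraries, against 353 and 316 in wild type libraries. Acsl5, an acyl-CoA synthetase, measured 62.8 and 95.1 in knockout libraries, against 160 and 145 in wild type libraries. Acacb, whose product malonyl-CoA inhibits Cpt1a, measured 3.12 and 3.79 in knockout libraries, against 6.82 and 8.93 in wild type libraries.

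Hsd17b10, a mitochondrial 3-hydroxyacyl-CoA dehydrogenase, measured 88.1 and 79.3 in knockout libraries, against 137 and 146 in wild type libraries. Acot13, a mitochondrial thioesterase, measured 42.6 and 45.4 in knockout libraries, against 61.6 and 63.3 in wild type libraries.

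Of 23 further PPAR-alpha targets, 15 were tested, and 2 lay above and 8 below in both knockout libraries, again beside 22.4% and 23.7% of all genes. The other 5 overlapped, and 6 of the 15 differences were positive. Of genes at a mean of at least 50 scaled FPKM, 39.7% lay below and 14.5% above. Whether level accounts for the counts of these targets was not tested. The lipid droplet protein Plin2 measured 98.4 and 102 scaled FPKM in knockout libraries, against 245 and 223 in wild type libraries, a log2 difference of -1.21. The fatty aldehyde dehydrogenase Aldh3a2 measured 91.6 and 54.5 in knockout libraries, against 168 and 144 in wild type libraries. Txnip, a thioredoxin-binding protein, had a log2 difference of -0.92, and Pex11a, which divides peroxisomes, one of -0.54. Above the wild type pair lay G0s2, an inhibitor of triglyceride lipolysis, with a log2 difference of 0.79, and Slc25a42, a mitochondrial carrier of coenzyme A, with one of 0.76.

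Peroxisome membrane and assembly genes mostly overlapped. Of 14 genes 11 were tested, and 1 lay above and 2 below, beside those same shares of all genes, and 8 overlapped, with 0 at an unadjusted p under 0.05 by limma. The membrane protein Pxmp2 had a log2 difference of -0.58, the assembly factor Pex3 one of -0.47 and Pex26 one of 0.31. The median log2 difference was -0.04, against -0.28 for the peroxisomal beta-oxidation genes and 0.02 for all genes. These lists differ in level. The tested peroxisomal beta-oxidation genes lay at the 91.0th to 98.3rd percentile, against the 29.9th to 94.5th for the membrane and assembly genes. Abundant genes as a whole lay lower in the knockout libraries, and whether level accounts for the gap between the medians was not tested.

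**Figure D5:**
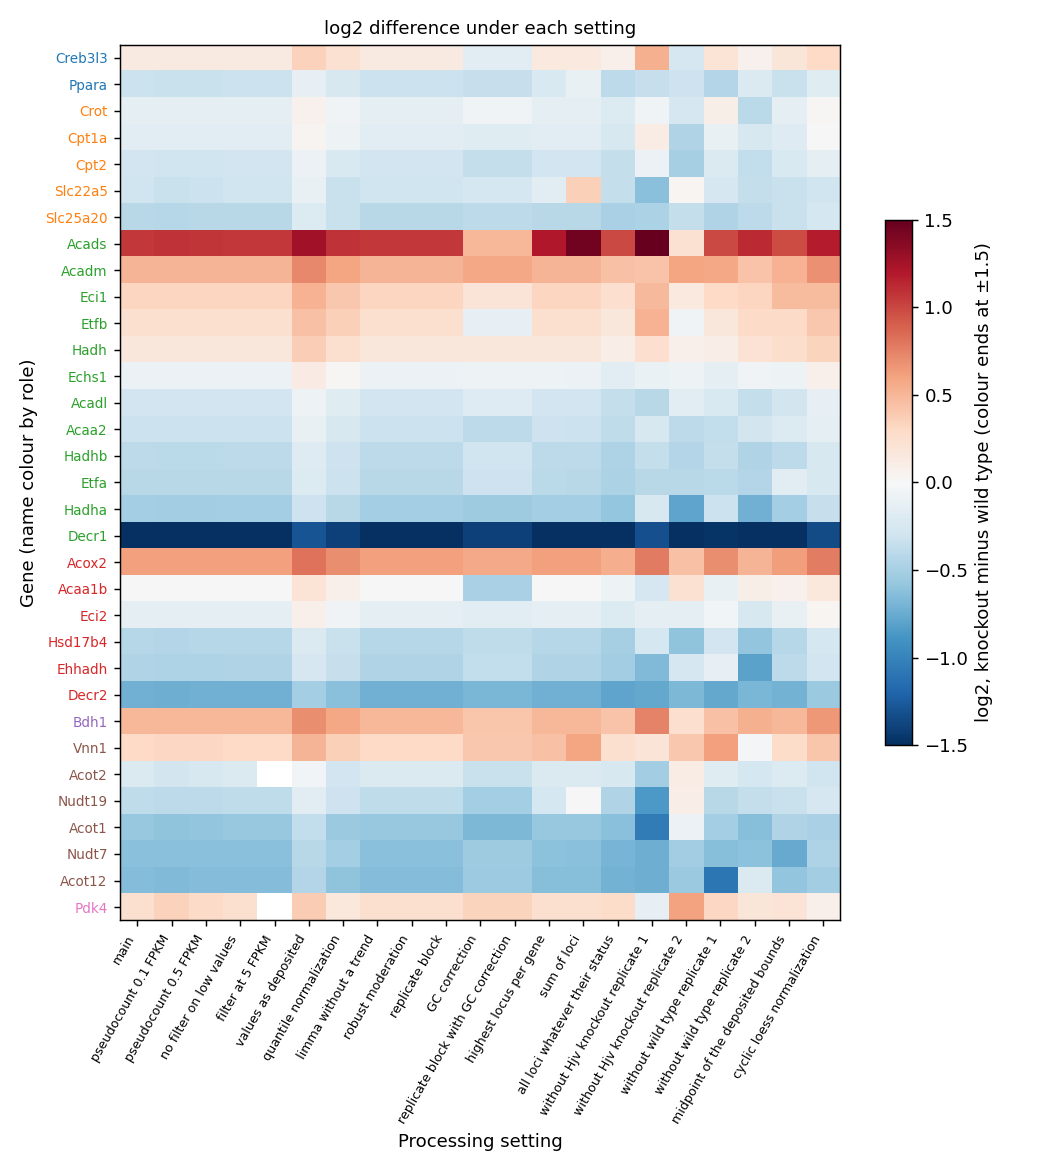
The log2 difference of each tested gene (rows) under the main processing and 20 alternatives (columns), red for higher and blue for lower in knockout, with colours ending at 1.5 on either side. Rows such as Decr1, Decr2, Nudt7, Acadm, Acox2 and Bdh1 keep 1 colour throughout, while Creb3l3, Etfb, Slc22a5 and Acaa1b change sign. Columns that change only the filter on low values, the trend, the moderation or the replicate block repeat the log2 values of another column.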

How the data were processed

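Liver RNA from 2 Hjv knockout and 2 wild type libraries was sequenced. Reads were handled with TopHat, Cufflinks and FastQC per the submitters' processing notes, which give no versions and name mm9. The authors deposited FPKM with a lower and an upper bound for each locus, per the file headers. The loci carry no gene names, and their coordinates follow GRCm38: 13.5% to 33.2% of loci over 2000 bases have an end within 20 bases of a GENCODE M21 gene end, against 0.205% to 0.308% after a shift along the chromosome.

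Loci went to the protein-coding gene with most of their exonic bases if at least 50% lay inside it. They were left out where a second gene held over 25% as many bases, where a locus touching 1 exon was under 50% exonic, or where FPKM exceeded 3 times the midpoint of the bounds. A gene's value averages the FPKM of its loci, each weighted by its exonic bases, and was used if they spanned at least 50% of a coding transcript, which gave 7934 genes with a value in all 4 libraries. These limits follow an earlier analysis of the same data.

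Libraries were put on 1 scale with median-of-ratios factors (1.20 and 0.951 for knockout, 0.934 and 0.914 for wild type replicates 1 and 2). Genes at 1 FPKM or more in 2 libraries were kept. limma 3.58.1 in R 4.3.3 was fitted on log2(scaled FPKM + 1) with a mean-variance trend, two-sided, with 2 residual and 2.93 prior degrees of freedom. The fit was also run on simulated data with 1 spread for all genes and no trend with GC content, unlike these libraries. That run checks the code and not the p-values of these data. The members and lists were chosen with earlier results of these data known. Every member is named, and up to 6 genes of each further list with groups that did not overlap, by smallest p, except 1 gene that is not reported here. Depth was read from steps between bounds of short loci, of which 97.5% to 98.9% were whole within 0.05 fragments.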

Additional observations from a re-analysis of the deposited data

How the results depend on the processing

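Of the 33 tested genes, 21 kept the direction of their difference under all 20 alternatives that included them (15 lower, 6 higher), and 12 changed sign under at least 1. Alternatives that change only the filter on low values, the mean-variance trend, the moderation or the replicate block cannot alter a log2 difference. They do not bear on these counts. Past the adjusted threshold lay 0 of the 33 under every alternative that kept all libraries, and 0 to 2 with 1 library left out, the 2 being Acads (log2 difference 1.89) and Decr1 (-1.32) without knockout replicate 1. Over all genes, leaving out 1 library gave 0 to 351 higher and 0 to 110 lower past that threshold, and values as deposited gave 1 higher. The genes below in both knockout libraries numbered 4 with values as deposited, against 16 in the main processing. With cyclic loess normalization 8 lay below and 8 above, where 22.6% and 21.4% of all genes did. With GC correction 16 lay below and 8 above, where 24.4% and 21.9% of all genes did, and the median of the 33 genes was -0.30. With 1 library left out those above ranged from 7 to 11 and those below from 16 to 22, while 32.0% to 40.0% of all genes lay above and 33.6% to 41.1% below. The median log2 difference of the 33 genes was -0.078 with values as deposited, -0.21 with the highest locus per gene, -0.15 with the loci of a gene summed, -0.21 with the midpoint of the bounds and -0.15 with cyclic loess, and -0.26 to -0.16 with 1 library left out. The midpoint and cyclic loess were chosen after seeing the data.

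With values as deposited the difference turned positive for Cpt1a (0.041), Echs1 (0.12), Eci2 (0.074), Acaa1b (0.20) and Crot (0.062). Under quantile normalization it did so for Echs1 (0.020) and Acaa1b (0.079), and with cyclic loess for Echs1 (0.082), Eci2 (0.034), Acaa1b (0.16) and Crot (0.023). GC correction, with or without the replicate block, turned Etfb (-0.12) and Creb3l3 (-0.16) negative. Summing loci turned Nudt19 (0.0067) and Slc22a5 (0.35) positive, and the midpoint of the bounds Acaa1b (0.066). With 1 library left out the differences of the genes that changed sign ranged from -0.45 to 0.11 for Cpt1a, -0.25 to 0.23 for Acaa1b, -0.053 to 0.52 for Etfb, -0.12 to 0.61 for Pdk4, -0.52 to 0.11 for Acot2, -0.86 to 0.11 for Nudt19, -0.40 to 0.091 for Crot, -0.019 to 0.61 for Vnn1, -0.25 to 0.53 for Creb3l3 and -0.63 to 0.029 for Slc22a5. With values as deposited, where the median of all genes moved by 0.18, the differences of Slc25a20 (-0.21), Hadhb (-0.19) and Etfa (-0.20) were smaller. The causes were not tested.

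The replicate numbers do not pair the libraries by the labels, and the deviations of equally numbered libraries correlated at 0.0845. Some traits did follow the replicate number. In replicate 1, 38.5% of knockout and 21.3% of wild type loci had 150 to 250 bases. In replicate 2 these shares were 4.48% and 4.49%. Replicate 2 minus replicate 1 had a Spearman correlation with GC content of 0.484 in knockout and 0.272 in wild type libraries. Whether equally numbered libraries share a batch was not tested. With the replicate number as a block, 0 of the 33 genes passed the adjusted threshold and the median stayed at -0.29. At an unadjusted p under 0.05, the block left 0 higher and 3 lower, against 539 higher and 374 lower among all 7913 genes. A lone library was assumed to vary like the other group.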
